A study of Mus musculus with 16 samples.

Results

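Mouse primary hepatocytes that carried an adenovirus with short hairpin RNAs against Hdac4 and Hdac5 were sampled after 4 h and after 2 h of forskolin, and the 2 times were compared gene by gene. The comparison used the 2 arrays at 4 h and the 2 arrays at 2 h, 4 of the 16 arrays in the series, and took in every gene whose probe was detected (detection p under 0.01) on at least 2 of the 16 arrays. This gave 7746 genes, of which 7561 were detected on at least 1 of the 4 arrays compared and 6581 on all 4. Forskolin is a plant diterpene that activates adenylyl cyclase directly and so raises cyclic AMP (cAMP) inside the cell. DMSO, its solvent, was the treatment of the control wells.

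All cells came from C57BL/6 mice aged 6 to 8 weeks and all received an adenovirus. The groups used here were cells with the HDAC4 and HDAC5 hairpins and forskolin for 4 h or for 2 h, then, for comparison, cells with the control virus (named GFP on the arrays, shGFP in the design) and forskolin for 4 h or for 2 h, and cells with the HDAC4 and HDAC5 hairpins and DMSO for 4 h or for 2 h. Each group had 2 arrays. Uninfected cells and single knockdowns were not analysed here, so every array shared viral infection, and the effects of the 2 hairpins cannot be told apart. Whether the arrays of one group hold RNA of different cultures or animals is not stated in the labels. The p-values therefore rest on a spread that may be technical only, and the small number of arrays limits the precision.

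Glucagon, the fasting hormone, acts on hepatocytes through a receptor that raises cAMP. Protein kinase A then phosphorylates the transcription factor CREB and releases its CRTC coactivators, and genes of glucose production such as G6pc and Pck1 are switched on. The early targets include short-lived regulators that damp the signal again, among them phosphodiesterases, salt-inducible kinases and the CREM repressor, so the response to a steady cAMP rise changes over hours. Class IIa histone deacetylases are phosphorylated by salt-inducible kinases and held in the cytoplasm by binding proteins. When cAMP rises they lose these phosphates, enter the nucleus and recruit HDAC3, which deacetylates FOXO factors at glucose production genes in mouse liver.

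The 4 arrays correlated closely within each group, but the times differed in the number of probes above background. Arrays of a group correlated at 0.992 to 0.994 over the tested genes. Arrays at 4 h correlated with those at 2 h at 0.957 to 0.958, and each of the 16 arrays matched the other array of its own group best. Probes above background numbered 10082 and 9741 of 24613 at 4 h, against 9140 and 9034 at 2 h. The 4 h counts were higher than those of any other array of the series, on which 8455 to 9467 probes were above background. The part of this difference in the counts of changed genes was not tested.

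The targeted genes were low in both groups compared. Hdac5 had normalized log2 intensities of 6.04 and 5.93 at 4 h, against 6.73 and 6.71 at 2 h, and in GFP cells with forskolin it had 9.83 and 9.61 at 4 h, against 10.35 and 10.13 at 2 h. It fell between the times in the knockdown cells (log2 difference -0.73 ± 0.13 (SE), adjusted p = 0.00061, limma with Benjamini-Hochberg adjustment), where only 1 of the 2 arrays detected it at 4 h, and another Hdac5 probe gave -0.04 (adjusted p = 0.91). Hdac4 read 6.91 and 6.99 at 4 h, against 6.36 and 6.54 at 2 h, and 8.66 and 8.61 at 4 h, against 7.51 and 8.08 at 2 h in GFP cells. Its difference between the times did not pass the test, at 0.50 (adjusted p = 0.062, and 0.023 with the array letter as a block). Hdac7, a class IIa deacetylase that was not targeted, fell (-0.53 ± 0.12 (SE), adjusted p = 0.0035), although not once arrays were scaled by their medians. Of the 9 measured class IIa deacetylases and partners, Hdac3 rose and Hdac5, Hdac7 and Camk2d fell.

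Between 2 h and 4 h of forskolin the knockdown cells changed the level of 3234 of the 7746 genes, which is 41.8% of them, at an adjusted p under 0.05. At 4 h 1638 genes (21.1%) were higher and 1596 (20.6%) lower, and these shares are the background for each count of members of a gene list. On 38.4% of genes both 4 h arrays were above both 2 h arrays, and on 35.2% both were below. A log2 difference of 1, a doubling, was exceeded by 265 of the higher and 322 of the lower genes, and a log2 difference of 2 by 37 and 19. The amounts by which a gene rose or fell, and values in parentheses after a gene's name, are log2 differences, 4 h minus 2 h, unless a fold is named. The median over all genes was 0.02, the median absolute log2 difference 0.32 and the median standard error 0.13. Of the higher genes, 218 were below background only at 2 h and 10 at both times. Of the lower genes, 72 were below background only at 4 h and 27 at both times. Among the 4512 genes not called, 305 were below background only at 2 h, 24 only at 4 h and 145 at both times. Scaling by array medians put 63.9% of the called genes higher at 4 h, against 50.6% with quantile normalization, and moved the median of all genes to 0.12.

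The same interval changed 2954 genes (38.1%, with 19.1% higher and 19.1% lower) in GFP cells with forskolin and 669 (8.64%, with 4.48% higher and 4.16% lower) in knockdown cells with DMSO. These comparisons use other arrays. Over the 7746 genes the log2 differences of the knockdown cells correlated with those of GFP cells at r = 0.537 and with those under DMSO at r = 0.437, as a description across genes, which are not independent replicates. Large falls were mostly found in GFP cells too. Of the 322 genes that fell by over 1 on the log2 scale, 257 (79.8%) also fell in GFP cells and 67 (20.8%) also fell under DMSO. Of the 265 genes that rose by over 1, 124 (46.8%) also rose in GFP cells and 108 (40.8%) also rose under DMSO. Neither comparison shared the change for 73 of the 265 rises and 44 of the 322 falls.

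**Figure D1:**
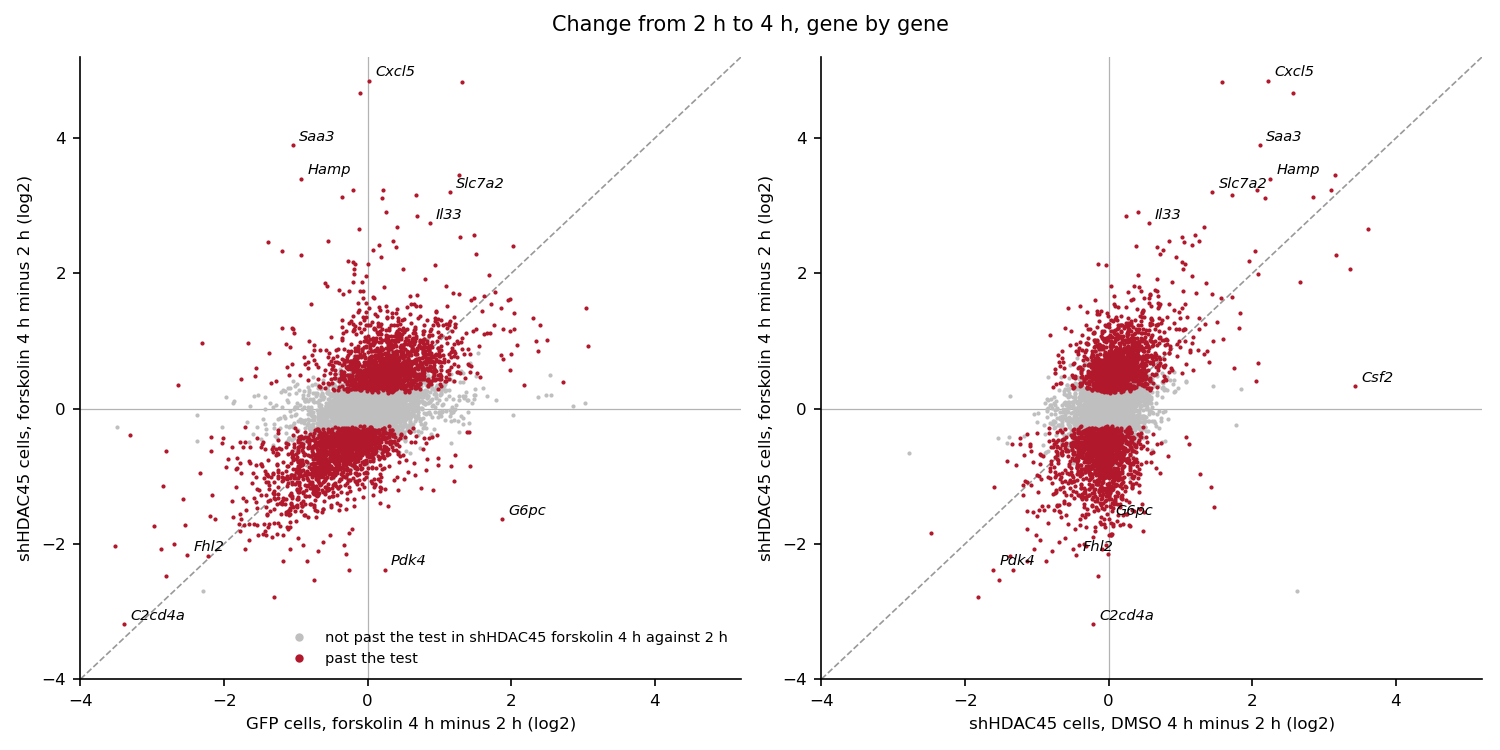
Log2 difference of each gene between 4 h and 2 h of forskolin in shHDAC45 cells (y axis) against its difference in GFP cells with forskolin (left, x axis) and in shHDAC45 cells with DMSO (right, x axis), with the genes past the test in shHDAC45 cells in red, all others in grey and the line of equal change dashed. The differences correlate at r = 0.537 on the left and 0.437 on the right. Changes under DMSO were smaller, with a median absolute log2 difference of 0.151, against 0.315 on the y axis. Cxcl5 and Saa3 lie at 4.85 and 3.90 on the y axis.

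The genes of glucose production did not move together. G6pc, the catalytic subunit of glucose-6-phosphatase, which releases free glucose, had log2 intensities of 6.80 and 6.72 at 4 h, against 8.33 and 8.47 at 2 h. Both 4 h arrays were below both 2 h arrays, and G6pc fell 3.11-fold (-1.64 ± 0.14 (SE), adjusted p = 1.9e-06), or 1.99-fold with no background correction. In GFP cells G6pc had 12.79 and 12.70 at 4 h, against 10.70 and 11.04 at 2 h, a rise of 1.88, so the change differed between the viruses by -3.51 (adjusted p = 1.3e-07). Under DMSO the knockdown cells had 6.04 and 5.87 at 4 h, against 5.95 and 5.96 at 2 h. Fbp1, the fructose-bisphosphatase of the pathway, went the other way, with 8.32 and 8.60 at 4 h, against 6.97 and 7.06 at 2 h. It rose 2.72-fold (1.44 ± 0.14 (SE), adjusted p = 4.4e-06), and by 1.59 in GFP cells. The change of Fbp1 was not shown to differ between the viruses (difference -0.15 ± 0.19, SE, adjusted p = 0.66).

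Pck1, which encodes the cytosolic phosphoenolpyruvate carboxykinase, was below background on all 4 arrays compared and gives no fold. Its difference between the times did not pass the test. It did in 5 of 25 alternative settings, among them median scaling and the array letter as a block (adjusted p = 0.038 with the block, limma). In GFP cells with forskolin it had 7.10 and 6.71 at 4 h, against 8.82 and 8.29 at 2 h (-1.65). Ppargc1a, a transcriptional coactivator induced in fasting, had 7.89 and 7.94 at 4 h, against 6.85 and 7.36 at 2 h, and rose by 0.81 (adjusted p = 0.0024). Its 2 h arrays lay apart, but neither reached the 4 h level. Of 15 measured gluconeogenic genes, 4 rose and 2 fell (median 0.15, against 0.02 over all genes), and 2 rose without array B of the 2 h group, array A of the 4 h group or array B of the 4 h group. Beside Fbp1 the rises were Ldha (0.48), Mdh1 (0.67) and Mdh2 (0.71), dehydrogenases of lactate and malate, and beside G6pc the fall was the glycerol-3-phosphate dehydrogenase Gpd1 (-0.69, against a rise of 0.49 in GFP cells). Ldha lost its call with median scaling. Pcx, pyruvate carboxylase, differed by 0.24 (adjusted p = 0.43).

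Pdk4, the kinase that shuts pyruvate dehydrogenase in fasting, showed the strongest fall among the genes of glycolysis and glycogen. It had 7.78 and 7.98 at 4 h, against 10.30 and 10.23 at 2 h, and it fell 5.21-fold (-2.38 ± 0.14 (SE), adjusted p = 6.9e-08). The knockdown cells under DMSO also lowered it (-1.60), while GFP cells with forskolin gave 0.24 (adjusted p = 0.19). The change differed between the viruses by -2.62 (adjusted p = 1.7e-06). Of the 12 measured members 4 rose, namely phosphoglucomutase Pgm1 (0.81), the glycogen-targeting phosphatase subunit Ppp1r3c (0.70), hexokinase Hk2 (0.60) and the glucose transporter Slc2a1 (0.50). Hk2 and Slc2a1 fell in GFP cells (-1.55 and -0.29).

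**Figure D2:**
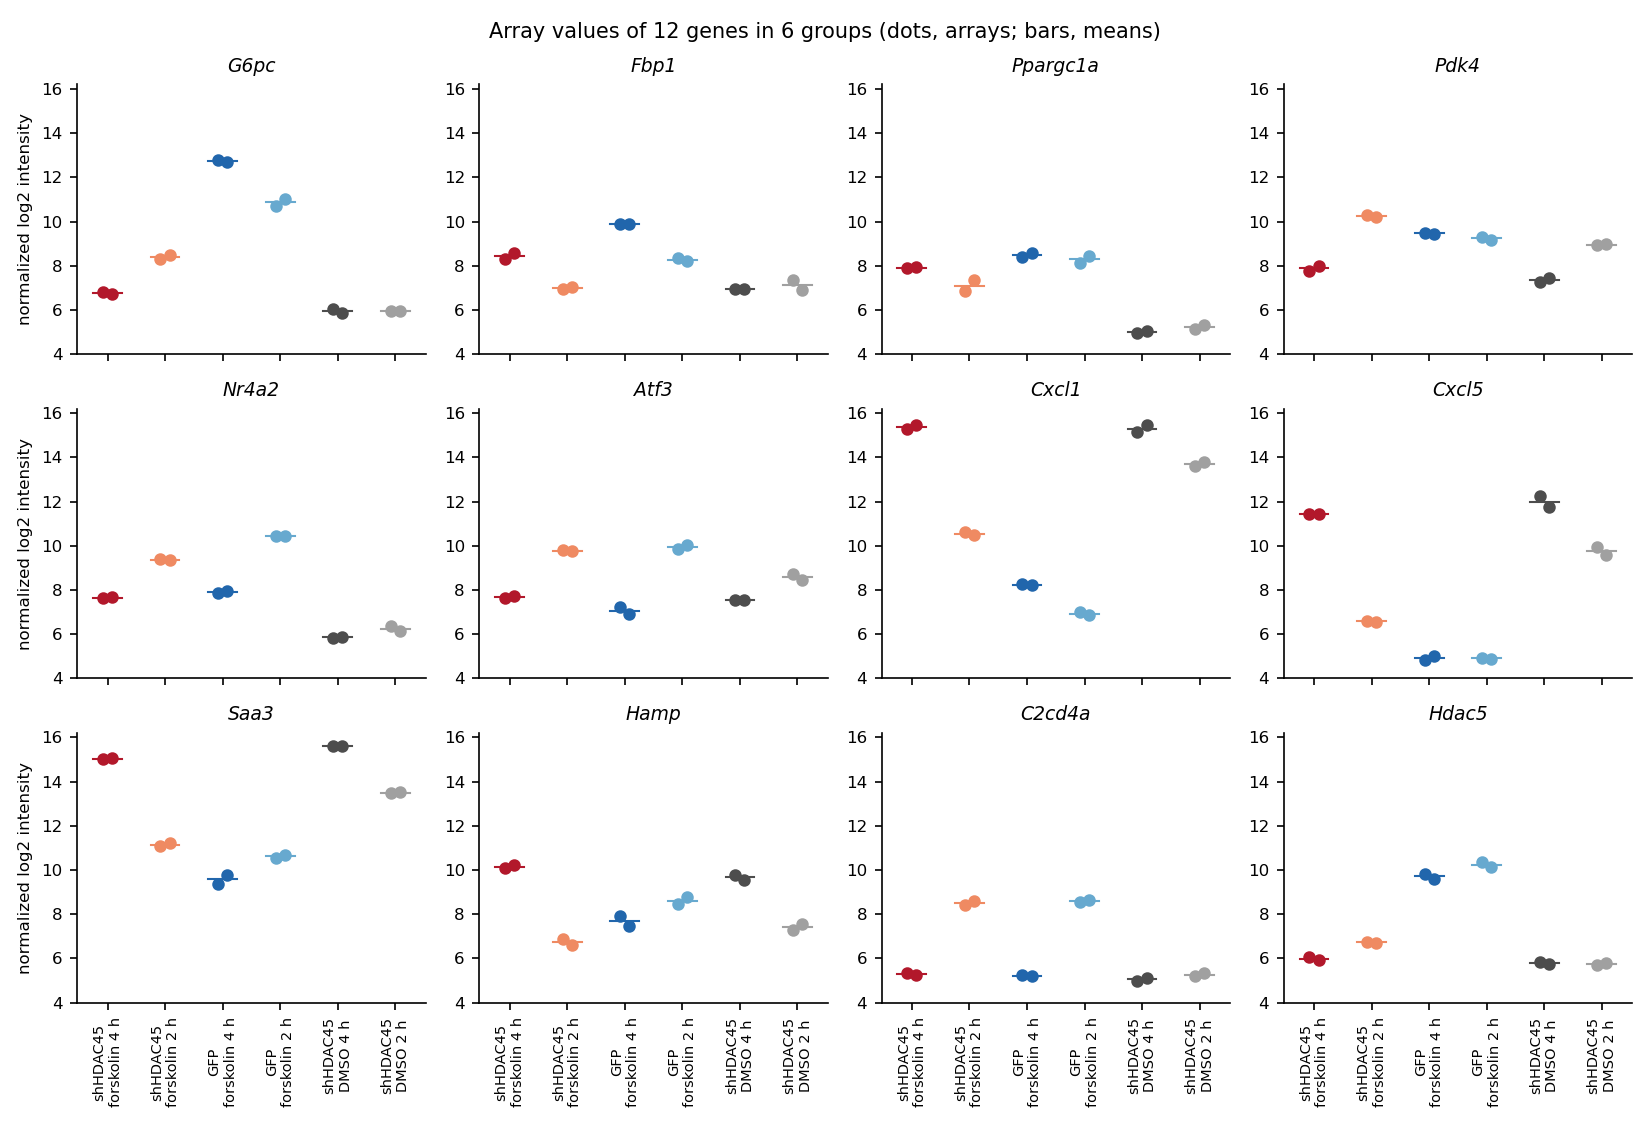
Normalized log2 intensity of 12 genes on each array (dots, with bars at the mean of 2 arrays), with shHDAC45 cells under forskolin at 4 h and 2 h on the left, then GFP cells under forskolin and shHDAC45 cells under DMSO, each with 4 h before 2 h. G6pc is at 6.80 and 6.72 at 4 h against 8.33 and 8.47 at 2 h in shHDAC45 cells, whereas Cxcl1 is at 15.30 and 15.44 against 10.61 and 10.47.

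Early genes of the cAMP response fell more often than they rose. Of 15 measured, 8 fell and 4 rose (median -0.49), with 6 falls under median scaling, and in GFP cells 11 fell and none rose (0 at an unadjusted p under 0.05, median -1.65). Nr4a2, an orphan nuclear receptor induced within the first hours of glucagon signalling, had 7.63 and 7.67 at 4 h, against 9.40 and 9.34 at 2 h. The 4 h arrays were clearly below the 2 h arrays, and the fall was 3.29-fold (-1.72 ± 0.09 (SE), adjusted p = 5.1e-08). Atf3, a stress- and cAMP-induced bZIP repressor, had 7.64 and 7.74 at 4 h, against 9.79 and 9.74 at 2 h, and fell 4.21-fold. Per1, a repressor of the circadian clock, had 6.84 and 7.06 at 4 h, against 8.87 and 8.90 at 2 h, and fell 3.83-fold, or 2.41-fold with no background correction. Bhlhe40, a transcriptional repressor tied to the clock, fell by 0.96. In GFP cells the differences were -2.55 for Nr4a2, -2.87 for Atf3, -1.65 for Per1 and -1.60 for Bhlhe40.

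Crem, the gene of the cAMP-inducible repressor, differed by -0.25 (adjusted p = 0.18), and the salt-inducible kinase Sik1 by -0.48 (adjusted p = 0.052, and 0.015 with the array letter as a block). Both fell in GFP cells (-0.78 and -2.38). The 4 rising members were Id1, an inhibitor of helix-loop-helix factors (2.48), Egr1, an immediate-early zinc finger factor (1.19, against -1.19 in GFP cells), Ppargc1a and Pde4b, a cAMP phosphodiesterase that was below background at 2 h and at least 1.49-fold higher at 4 h (adjusted p = 0.00064). Id1 had 9.38 and 9.43 at 4 h, against 7.14 and 6.71 at 2 h, and its arrays did not overlap, with a difference of 1.70 with no background correction. Cyp17a1, a steroid hydroxylase, was below background at 2 h and gives no fold, and in GFP cells it rose by 3.06.

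Components of the pathway outside the early genes rose more often than they fell. Of 19 measured pathway components, 6 rose and 1 fell (median 0.34). The phosphodiesterases Pde10a (1.81), Pde8a (0.80) and Pde7a (0.49) and the adenylyl cyclases Adcy9 (1.13) and Adcy6 (0.70) rose, and so did Pde3b, which was below background at 2 h. Pde10a had 9.47 and 9.41 at 4 h, against 7.55 and 7.71 at 2 h, and it also rose in GFP cells (1.09). The member that fell was Creb3l3, a liver transcription factor freed from the endoplasmic reticulum in fasting. It had 8.16 and 8.04 at 4 h, against 8.997 and 9.17 at 2 h (-0.99 ± 0.11 (SE), adjusted p = 1.6e-05), a fall also seen under DMSO (-0.999) but not in GFP cells, where it rose by 0.66. The catalytic subunits Prkaca (0.06) and Prkacb (0.17) did not pass the test.

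CREB binds the palindrome TGACGTCA, the full cAMP response element, and the shorter site TGACG, which reads CGTCA on the other strand. RefSeq promoter windows on GRCm38.p6, from 250 bases before to 50 after the gene start, were found for 6343 of the 7746 genes and searched on both strands. The full element contains the shorter site. Among genes with a window, 3.63% of higher genes, 4.03% of lower genes and 3.61% of all tested genes held the full element in any window. The shorter site was held by 37.9%, 33.8% and 36.2% of these genes. Among the 10 early cAMP genes with a window, 2 held the full element and 9 the shorter site. Of the 149 named genes with a window, Lmcd1, Ldha and Cdkn2b held the full element, and these 3 windows are printed as examples of it among named genes. The element is in capitals, and the position of its first base is counted from the gene start.
Lmcd1 (chr6:112273508-112273807, plus strand, element at -130): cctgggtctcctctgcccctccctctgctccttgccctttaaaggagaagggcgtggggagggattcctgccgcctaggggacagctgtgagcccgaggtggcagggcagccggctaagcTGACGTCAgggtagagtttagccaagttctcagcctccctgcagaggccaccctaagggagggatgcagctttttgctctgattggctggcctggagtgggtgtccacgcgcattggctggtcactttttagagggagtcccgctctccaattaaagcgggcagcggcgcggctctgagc
Ldha (chr7:46845554-46845853, plus strand, element at -12): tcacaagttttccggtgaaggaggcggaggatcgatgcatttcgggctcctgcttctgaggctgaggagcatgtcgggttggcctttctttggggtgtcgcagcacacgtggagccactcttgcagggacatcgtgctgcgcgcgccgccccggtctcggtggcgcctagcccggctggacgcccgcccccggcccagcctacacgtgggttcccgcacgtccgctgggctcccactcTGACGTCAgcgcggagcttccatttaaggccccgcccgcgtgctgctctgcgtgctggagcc
Cdkn2b (chr4:89310983-89311282, minus strand, element at -46): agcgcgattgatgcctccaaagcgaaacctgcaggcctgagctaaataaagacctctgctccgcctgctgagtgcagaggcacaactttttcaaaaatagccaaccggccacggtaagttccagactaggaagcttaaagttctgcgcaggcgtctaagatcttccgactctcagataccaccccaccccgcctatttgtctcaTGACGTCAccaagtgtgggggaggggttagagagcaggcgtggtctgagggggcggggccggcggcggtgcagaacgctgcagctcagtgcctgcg
Lmcd1, a LIM-domain transcriptional cofactor, had 9.75 and 9.72 at 4 h, against 11.81 and 12.01 at 2 h, and fell 4.52-fold. Cdkn2b, an inhibitor of cyclin D kinases, had 11.60 and 11.41 at 4 h, against 12.37 and 12.54 at 2 h, and fell by 0.95. Ldha, lactate dehydrogenase A, had 13.99 and 14.04 at 4 h, against 13.50 and 13.58 at 2 h, and rose by 0.48. The element thus stood in windows of genes that moved both ways, and a match describes letters, not binding.

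The wider set of AP-1 and Kruppel-like early factors was split. Of 19 measured, 5 rose and 7 fell (median -0.28), with 4 falls without array B of the 4 h group and 4 with no background correction. Klf4, a zinc finger factor of early responses, had 8.21 and 7.97 at 4 h, against 10.13 and 10.12 at 2 h, and fell 4.1-fold (-2.04 ± 0.16 (SE), adjusted p = 1e-06). Fosl2, a partner of JUN proteins, had 8.75 and 8.65 at 4 h, against 10.38 and 10.48 at 2 h, and fell 3.32-fold. Both falls were smaller than in GFP cells, where Klf4 differed by -3.52 and Fosl2 by -2.97, and the difference between the viruses was 1.48 for Klf4 and 1.24 for Fosl2 (adjusted p = 0.00078 and 0.00034). Klf9, a glucocorticoid target, fell by 1.31. Klf6 had 11.30 and 11.27 at 4 h, against 9.55 and 9.66 at 2 h, and rose by 1.68. Cebpb, a leucine zipper factor of gluconeogenesis and the acute phase, rose by 0.82 and fell by 1.37 in GFP cells.

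Genes that feed back on the ERK kinases rose in part. Of 9 measured, 4 rose and 3 fell, whereas in GFP cells none rose (0 at an unadjusted p under 0.05) and 8 fell. The ERK phosphatase Dusp4 had 12.11 and 12.09 at 4 h, against 10.32 and 10.38 at 2 h, and rose by 1.75 (adjusted p = 1.5e-07), and it fell by 0.40 in GFP cells. Dusp6, which dephosphorylates ERK in the cytoplasm, rose by 0.96, Phlda1 by 0.96 and Ier3 by 0.97, against -1.13, -2.30 and -1.67 in GFP cells. The change of each of these 4 genes differed between the viruses (adjusted p between 3.8e-08 and 3.6e-06). Targets of the YAP coactivator and of SRF, which answer to cell shape and actin, fell more often than they rose, with 8 falls and 3 rises of 17. In GFP cells 9 of the 17 fell and 2 rose. In the knockdown cells Srf itself fell by 0.998 and Ankrd1, a muscle and YAP target, by 0.96. Ccn1, a matrix protein gene, was below background at 2 h and at least 1.75-fold higher at 4 h. Amotl2, of the same list, rose too, by 0.48 to 0.95 over the alternative settings.

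The strongest rises were in secreted signals of inflammation. Of 19 measured chemokines and cytokines, 17 rose and 1 fell, with a median log2 difference of 2.27, which was 1.24 with no background correction and 1.55 on the authors' deposited values. In GFP cells with forskolin 2 rose and 8 fell (median -0.20), and in knockdown cells with DMSO 14 rose and 1 fell (median 1.58). Cxcl1, a chemokine that attracts neutrophils, had 15.30 and 15.44 at 4 h, against 10.61 and 10.47 at 2 h. The arrays of the 2 times were far apart, and Cxcl1 rose 28.5-fold (4.83 ± 0.12 (SE), adjusted p = 5.9e-11). Cxcl5, of the same family, had 11.43 and 11.46 at 4 h, against 6.62 and 6.56 at 2 h, and rose 28.9-fold (4.85 ± 0.17 (SE), adjusted p = 8.8e-10), or 13.2-fold with no background correction. In GFP cells Cxcl5 stayed below background at 4.83 and 5.02 at 4 h, against 4.93 and 4.88 at 2 h.

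Cxcl2 was below background at 2 h and reached 9.77 and 9.77 at 4 h, at least 9.75-fold higher (adjusted p = 1.3e-10). Il6, the cytokine that drives the acute phase in hepatocytes, was also below background at 2 h and was at least 5.35-fold higher at 4 h. The macrophage chemokine Ccl4 was at least 3.54-fold higher on its brightest probe, and its other probe gave a log2 difference of 1.17. Ccl2, which attracts monocytes, averaged 12.44 ± 0.035 at 4 h, against 9.97 ± 0.037 at 2 h (SD, n = 2 each), and rose 5.51-fold, and in GFP cells it fell by 1.38. Il1b had 9.51 and 9.44 at 4 h, against 7.29 and 7.11 at 2 h, and rose 4.82-fold. Cxcl12, a homeostatic chemokine, was the member that fell (-0.45). Among the 17 rising members, Csf2 was below background at both times.

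Many of these genes also rose with time under DMSO, and some did so from a higher level. Cxcl1 had 15.14 and 15.44 at 4 h, against 13.61 and 13.80 at 2 h in knockdown cells with DMSO, so the 4 h levels of both treatments were close while the forskolin arrays were lower at 2 h. Cxcl5 had 12.23 and 11.74 at 4 h, against 9.94 and 9.59 at 2 h under DMSO. The rise was larger with forskolin by 3.25 for Cxcl1 and 2.63 for Cxcl5 (adjusted p = 2e-07 and 2.4e-05). Csf2, the gene of a granulocyte-macrophage growth factor, differed the other way. It was below background on the forskolin arrays at both times and had 9.30 and 9.38 at 4 h, against 5.81 and 6.01 at 2 h under DMSO, at least 7.35-fold higher at 4 h and below background at 2 h. The summed signal of macrophage markers was 10930 to 11920 at 4 h, against 5951 to 6095 at 2 h with forskolin, but as single genes 4 of the 8 tested markers rose and 4 fell (median 0.04), and their part in the rise of the chemokines was not tested. Il33, an alarmin released by damaged cells, had 13.09 and 12.99 at 4 h, against 10.32 and 10.27 at 2 h, and rose by 2.74 with forskolin, and by 0.56 under DMSO.

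NF-kB is the factor through which cytokines and microbial products act on most chemokine genes, and its inhibitors are its own targets. Of 16 measured subunits and feedback genes, 10 rose and none fell (0 at an unadjusted p under 0.05, limma, median 0.42). In GFP cells 3 rose and 4 fell, and under DMSO 6 rose and none fell (1 at an unadjusted p under 0.05). Tnfaip3, a ubiquitin-editing enzyme that ends NF-kB signalling, had 11.05 and 10.92 at 4 h, against 7.88 and 7.77 at 2 h, and rose 8.96-fold (3.16 ± 0.12 (SE), adjusted p = 1.6e-09). Nfkbia, the inhibitor IkB-alpha, rose by 2.14, and gave 0.01 (adjusted p = 0.99) in GFP cells. Ikbkg, the regulatory subunit of the IkB kinase, rose by 1.54 and the mitochondrial superoxide dismutase Sod2 by 1.42. Zc3h12a, an RNase that degrades cytokine messengers, was below background at 2 h and at least 1.24-fold higher at 4 h.

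Acute phase proteins are the plasma proteins that hepatocytes make under IL-6 and IL-1. Of 18 measured genes, 11 rose and 4 fell (median 0.73), although none fell with median scaling, without array B of the 2 h group or without array A of the 4 h group, and 2 fell without array A of the 2 h group or array B of the 4 h group. Of the same 18 genes, 5 rose and 6 fell in GFP cells with forskolin. In knockdown cells with DMSO 8 rose and 2 fell (median 0.42). The change with time was higher under forskolin than under DMSO for 9 of the 18 and lower for 2. Saa3, a serum amyloid A, had 15.02 and 15.06 at 4 h, against 11.06 and 11.23 at 2 h. It rose 14.9-fold (3.90 ± 0.15 (SE), adjusted p = 1.6e-09, limma). The GFP cells had 9.35 and 9.79 at 4 h, against 10.55 and 10.68 at 2 h, a fall of 1.04, and the change differed between the viruses by 4.94. Hamp, the gene of the iron hormone hepcidin, had 10.08 and 10.20 at 4 h, against 6.87 and 6.60 at 2 h, and rose 10.6-fold, or 5.42-fold with no background correction, against a difference of -0.93 in GFP cells. Fga, a fibrinogen chain, had 12.60 and 12.48 at 4 h, against 9.89 and 10.09 at 2 h, and rose 5.83-fold, and Crp, C-reactive protein, rose 5.31-fold. Both also rose in GFP cells (1.29 and 2.03). Lcn2, a protein that withholds bacterial iron carriers, rose by 1.97 and gave -0.03 (adjusted p = 0.86) in GFP cells. Saa1 (-0.36) and Saa2 (-0.42) fell, and their near-identical sequences may share signal on the arrays.

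Of 13 interferon-linked genes, 4 were higher and 3 lower (median 0.09), close to the shares of 21.1% and 20.6% over all genes, and 2 were higher without array B of the 2 h group or array B of the 4 h group, or with no filter on dim probes. Irf8, a factor of myeloid cells, had 7.62 and 8.07 at 4 h, against 6.49 and 5.60 at 2 h, and rose by 1.80, or by 0.90 with no background correction, although its 2 h arrays lay far apart. Irf1 rose by 0.88. Ifit2 (-0.80) and Bst2 (-0.74), which restrict viruses, fell.

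**Figure D3:**
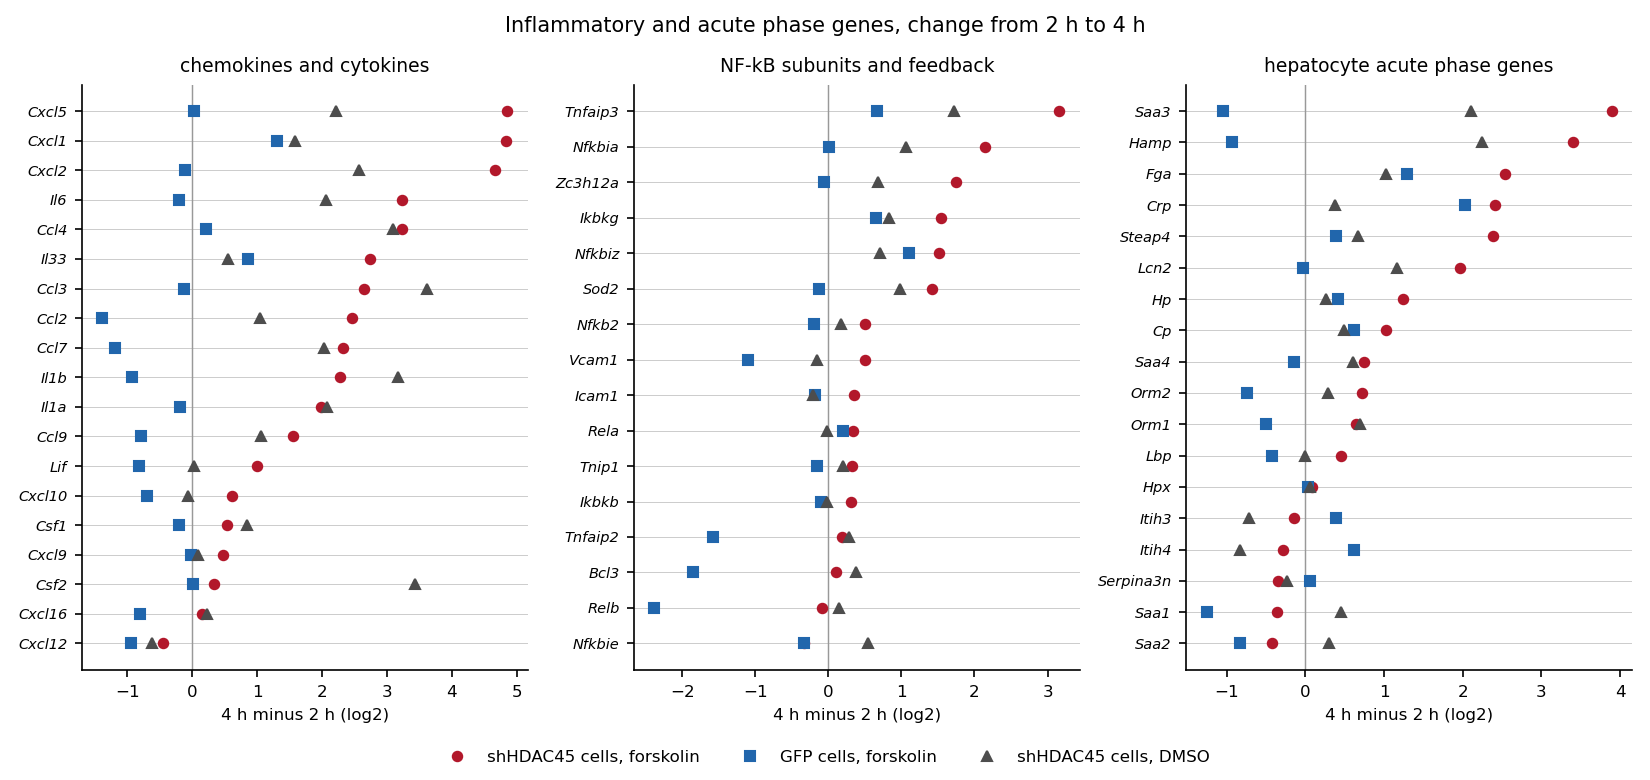
Log2 difference between 4 h and 2 h for each measured chemokine or cytokine, NF-kB gene and acute phase gene, in shHDAC45 cells with forskolin (red circles), GFP cells with forskolin (blue squares) and shHDAC45 cells with DMSO (dark triangles). The red circles of Cxcl5, Cxcl1, Cxcl2 and Saa3 lie furthest to the right, and the blue squares of Ccl2, Saa3 and Hamp lie below 0.

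Markers of the labelled cell type fell. Of 8 tested hepatocyte markers, 6 fell and none rose (0 at an unadjusted p under 0.05, median -0.89), and their summed normalized intensity was 7499 to 8088 at 4 h, against 12850 to 14160 at 2 h. Under DMSO it was 7324 to 7336 at 4 h, against 11810 to 11840 at 2 h. GFP cells with forskolin had 32780 to 35660 at 4 h, against 30440 to 32350 at 2 h, so the level in knockdown cells was lower at both times. Alb, Fgb, Asgr1 and Asgr2 were not above background in any group, and Tdo2 was not in knockdown cells, which left 7 of the 12 markers on the array above background there. In bulk RNA, fewer cells of a type and less RNA of a gene per cell cannot be told apart. Apoc3 had 8.02 and 8.28 at 4 h, against 9.66 and 9.70 at 2 h, and fell by 1.53, and Apoa2, a second apolipoprotein of lipoprotein particles, had 9.78 and 9.65 at 4 h, against 11.004 and 11.24 at 2 h, and fell by 1.41. Both also fell in GFP cells (-1.12 and -1.19). Hnf4a, the nuclear receptor that maintains hepatocyte identity, fell by 1.03 (9.34 and 9.35 at 4 h, against 10.37 and 10.39 at 2 h), and gave 0.09 (adjusted p = 0.58) in GFP cells.

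Markers of other liver cells moved as well. The Kupffer cell and macrophage sum given above held 8 detected markers, with Clec4f, Cd5l, Timd4 and Itgam not above background. Under DMSO it was 8900 to 9323 at 4 h, against 5656 to 5688 at 2 h, and in GFP cells with forskolin 6634 to 6726 at 4 h, against 6382 to 6539 at 2 h. Of 8 tested, 4 rose and 4 fell. Cd14, the lipopolysaccharide coreceptor, rose 3.67-fold, and the scavenger receptor Marco rose by 0.86, while the complement receptor Vsig4 (-1.07) and the complement subunits C1qc (-1.12) and C1qa (-0.81) fell. Endothelial markers summed to 2663 to 2735 at 4 h, against 2109 to 2231 at 2 h, with 4 of 8 higher, among them Lyve1 (0.65) and Pecam1 (0.47), a count that dropped to 1 without array A of the 2 h group or array B of the 4 h group. Stellate cell and fibroblast markers summed to 12110 to 12920 at 4 h, against 10850 to 11080 at 2 h, with Reln (0.59) and Dcn (0.40) higher and Col1a1 (-0.58) lower of 7. Cholangiocyte markers summed to 1633 to 1707 at 4 h, against 1707 to 1802 at 2 h. Of these, the keratins Krt19, at least 3.93-fold lower and below background at 4 h, and Krt7 (-0.98) fell, and Prom1 (0.53) rose. Of the lymphocyte and neutrophil markers, S100a8 was tested and was below background at both times.

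Among 12 liver-enriched transcription factors, 4 rose and 4 fell, with 2 rises without array A of the 2 h group or array B of the 4 h group. Prox1, a homeobox factor of hepatocytes, had 10.01 and 9.93 at 4 h, against 8.67 and 8.87 at 2 h, and rose by 1.20, as it did in GFP cells (1.22). Tbx3 (-0.65) and the oestrogen-related receptor Esrra (-0.71) fell, beside Hnf4a. Of 19 coagulation, complement and plasma protein genes, 2 rose and 6 fell (median -0.12), with 3 falls without array B of the 4 h group. Ttr, the thyroxine carrier transthyretin, fell by 0.99 and Apoa1 by 0.78, while Apob rose by 0.62. The falls of Ttr and Hnf4a were also seen under DMSO (-0.97 and -0.68).

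Genes that make and store fat rose where they changed, with 6 higher and none lower (0 at an unadjusted p under 0.05) of 14 (median 0.15). Dgat2, which joins the last fatty acid to a triglyceride, had 14.58 and 14.61 at 4 h, against 12.26 and 12.44 at 2 h, and rose 4.74-fold (2.24 ± 0.11 (SE), adjusted p = 1.4e-08). In GFP cells it gave 0.18 (adjusted p = 0.2), and the change differed between the viruses by 2.06. Dgat1, the other enzyme of that step, rose by 1.26, the elongase Elovl6 by 1.15 and fatty acid synthase Fasn by 0.75. Fatty acid oxidation was split, with 2 higher and 3 lower of 10 (median -0.12, and 0.05 with median scaling). Acadl (0.68) and Cpt2 (0.55), enzymes of mitochondrial oxidation, rose, while the lipid droplet coat Plin2 (-0.61) fell and the thioesterase Acot2 was below background at 4 h and at least 1.52-fold lower.

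Of 13 cholesterol synthesis genes, 3 rose and none fell (1 at an unadjusted p under 0.05, median 0.05). Sqle, squalene epoxidase, rose by 0.66 and Nsdhl by 0.30, and Idi1 was below background at 2 h and at least 1.05-fold higher at 4 h. Of 9 bile acid genes, 4 rose and 1 fell. Nr1h4, the bile acid receptor FXR, had 9.51 and 9.50 at 4 h, against 8.45 and 8.60 at 2 h, and rose by 0.98, the sterol transporter subunit Abcg5 by 1.25 and the oxysterol hydroxylase Cyp7b1 by 0.997, while Cyp27a1, of the alternative pathway, fell by 0.44. These 4 genes moved in the same direction in GFP cells (1.30, 1.08, 0.63 and -0.34).

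Amino acid genes included one of the largest rises. Slc7a2, a transporter of arginine and other cationic amino acids, had 11.18 and 11.18 at 4 h, against 7.90 and 8.06 at 2 h, and rose 9.2-fold (3.20 ± 0.12 (SE), adjusted p = 1.6e-09), with 1.15 in GFP cells and 1.44 under DMSO. Of 13 measured amino acid and urea cycle genes, 6 rose and 3 fell. Ddc, the decarboxylase that makes dopamine and serotonin, rose by 1.49, against 3.04 in GFP cells, and the lysine-degrading Aass by 0.95 and the transporter Slc38a4 by 0.88. Of 10 genes of the methionine cycle and transsulfuration, 5 rose and 1 fell. Gclc, the rate-limiting enzyme of glutathione synthesis, was at least 2.61-fold higher and Gnmt, a glycine methyltransferase, at least 1.04-fold higher, both below background at 2 h. Bhmt2 rose by 0.94, less than in GFP cells (2.07, adjusted p of the difference = 0.0062). Csad, of taurine synthesis, fell by 1.17.

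Cytochromes P450, which metabolize drugs and steroids, moved both ways. Of 8 measured members of the P450 list, 1 rose, Cyp17a1, and 3 fell, namely Cyp2d10 (-1.08), Cyp3a13 (-0.41) and Cyp2d22 (-0.36). Cyp2d family members are close in sequence, and their probes may share signal. Cyp1b1, of family 1 but not a member of the list, rose 10.9-fold and stands among the largest rises. Of 11 alcohol and aldehyde dehydrogenases, 5 rose and none fell (0 at an unadjusted p under 0.05), with 3 rises without array A of the 4 h group. Adh1 had 12.16 and 12.28 at 4 h, against 10.99 and 11.09 at 2 h, and rose by 1.18, Aldh1a7 rose by 1.18 and Adh7, a retinol-oxidizing form, by 1.07. Aldh8a1 was below background at both times. In GFP cells Adh1 rose by 1.89 and Aldh1a7 by 2.04.

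Most of the measured respiratory chain genes fell. Of 25 measured respiratory chain genes, 15 fell and 2 rose (median -0.62). Under DMSO none of them passed the limma test in either direction (0 higher and 1 lower at an unadjusted p under 0.05), and in GFP cells 12 fell and 5 rose (median -0.27). Ndufa3, an accessory subunit of complex I, had 9.79 and 10.05 at 4 h, against 11.95 and 12.05 at 2 h. Both 4 h arrays were below both 2 h arrays, and the fall was 4.23-fold (-2.08 ± 0.12 (SE), adjusted p = 6.8e-08). Ndufa5 fell by 1.41, Ndufa1 by 1.36 and Ndufa2 by 1.33, all accessory subunits of the same complex. The rising members were Uqcrc1 (0.36) and Uqcrc2 (0.53), core proteins of complex III. Among cytosolic ribosomal proteins 8 of 17 fell and none rose (0 at an unadjusted p under 0.05, median -0.31), with 5 falls without array B of the 2 h group. Rps29 had 13.29 and 13.64 at 4 h, against 15.15 and 15.18 at 2 h, and fell 3.26-fold, and Rps27 fell by 0.92, Rpl22 by 0.60 and Rpl11 by 0.58. In GFP cells 8 of the 17 fell and none rose (0 at an unadjusted p under 0.05, limma, median -0.27). Under DMSO none passed the test (1 higher and 0 lower at an unadjusted p under 0.05). None of the 17 was shown to differ in its change between the viruses (0 at an unadjusted p under 0.05). Ribosomal proteins have many processed pseudogenes, which a probe may also read.

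Regulators of mitochondria changed at shares close to the 21.1% higher and 20.6% lower over all genes. Of 14 mitochondrial biogenesis genes, 4 rose (2 without array A or without array B of the 4 h group), among them Ppargc1a and the mitochondrial DNA packaging factor Tfam (0.60), and 3 fell, among them Esrra and the fusion protein Mfn1 (-0.49). Of 17 ribosome biogenesis genes, 1 rose, the nucleolar protein Nop56 (0.59), and 4 fell (2 with median scaling or without array A of the 2 h group), among them Gar1 (-0.72), Rrp12 (-0.57) and fibrillarin, Fbl (-0.34).

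Of 25 measured cell cycle and replication genes, 14 rose and 4 fell (median 0.55, with 2 falls under median scaling), and in GFP cells 13 rose and 5 fell. Ccnd1, the cyclin that answers to growth signals, had 8.36 and 8.36 at 4 h, against 10.26 and 10.48 at 2 h, and fell 4.04-fold (-2.01 ± 0.10 (SE), adjusted p = 2.1e-08). Other Ccnd1 probes gave -1.75 and -0.93 in the knockdown cells, and -0.865 and -0.484 in GFP cells. Under DMSO the brightest Ccnd1 probe gave -0.04 (adjusted p = 0.89, limma). Cdk2, the kinase of the G1 to S transition, had 13.54 and 13.50 at 4 h, against 12.41 and 12.48 at 2 h, and rose by 1.07, and the replication licensing factor Cdt1 rose by 0.97. Outside the naming rule, and chosen after their values were seen, the replication genes Cdc6 (1.19), Ccne2 (1.18) and Pcna (1.07) rose too. Cdc6 and Pcna gave -0.12 (adjusted p = 0.55, limma) and 0.28 (adjusted p = 0.34) in GFP cells, where other Cdk2 probes rose by 0.43, 0.78 and 0.44. Over the 25 genes, the test of the difference between the viruses called 3 higher and 3 lower in knockdown cells.

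**Figure D4:**
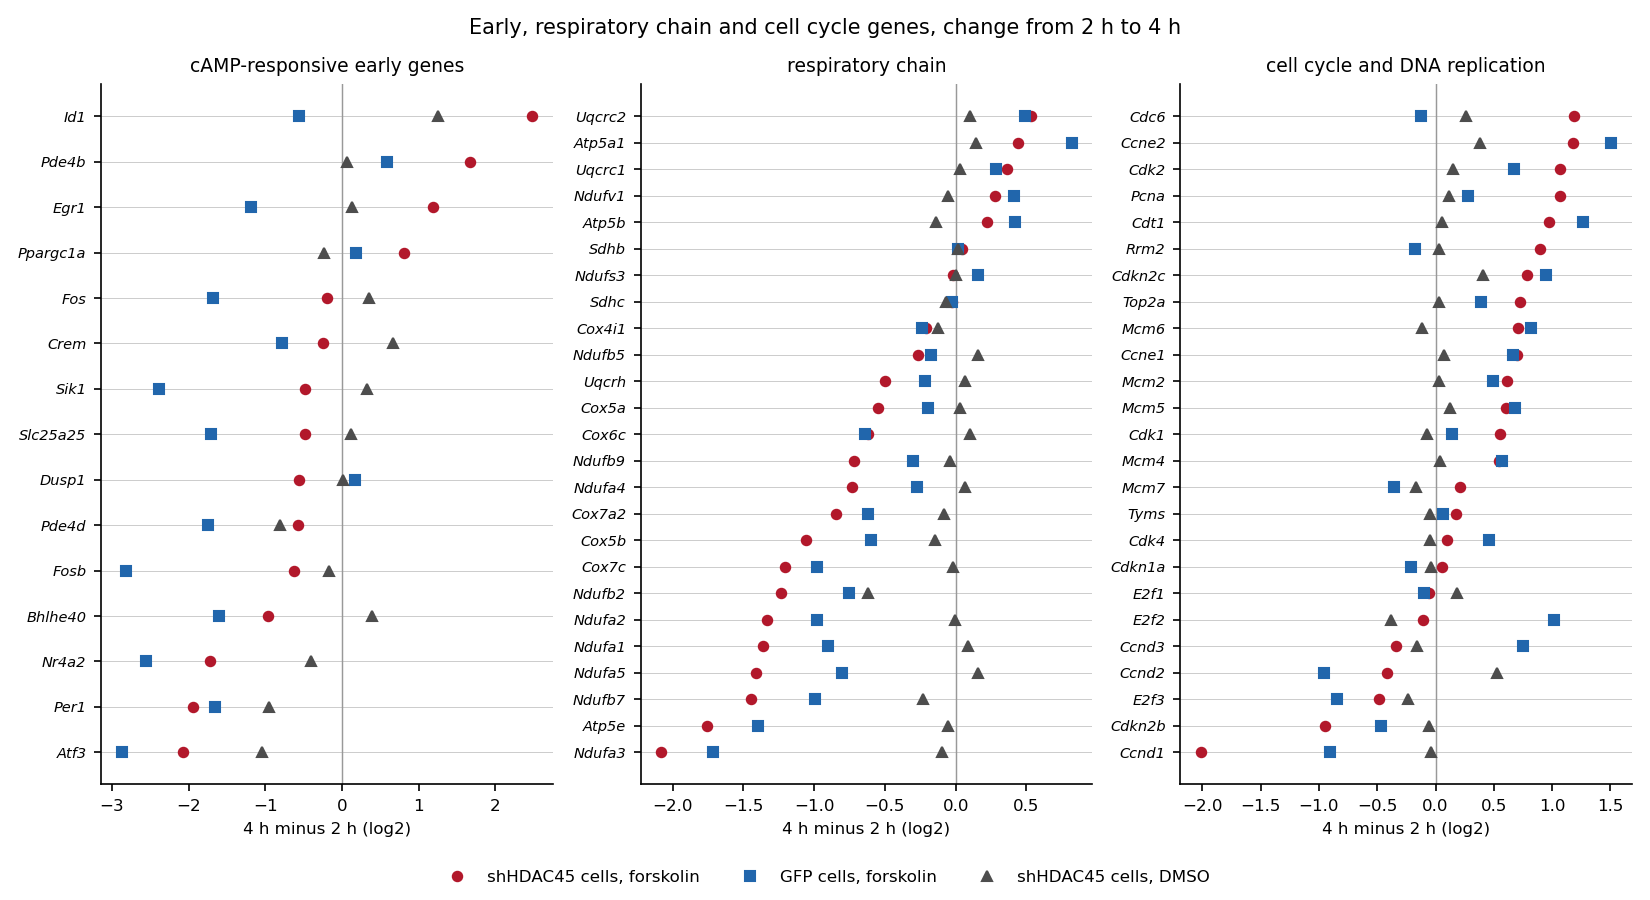
Log2 difference between 4 h and 2 h for each measured early cAMP gene, respiratory chain gene and cell cycle gene, in shHDAC45 cells with forskolin (red circles), GFP cells with forskolin (blue squares) and shHDAC45 cells with DMSO (dark triangles). The red circles of Ndufa3, Nr4a2 and Ccnd1 lie at -2.08, -1.72 and -2.01, and the dark triangles of the respiratory chain stay close to 0.

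Of 12 clock genes, 6 fell and 2 rose, with 4 falls under median scaling. Beside Per1 and Bhlhe40, Per2 fell by 1.19 and Cry2 by 0.44, all repressors of the clock loop. Of 8 glucocorticoid-linked genes, 5 fell and 1 rose (median -0.82). In GFP cells 5 of the 8 fell and 1 rose (median -0.535), and under DMSO 1 fell and 1 rose. Sgk1, a kinase induced by corticosteroids, had 11.83 and 11.69 at 4 h, against 12.94 and 12.998 at 2 h, and fell by 1.21, against a rise of 0.42 in GFP cells, and the metallothionein Mt2 fell by 1.08. The rising member in the knockdown cells was Lcn2. Per1, Klf9 and Sgk1 stand in more than 1 list. Of 10 FOXO and insulin signalling genes, 2 rose and 5 fell, with 3 falls without array B of the 4 h group. Foxo1, the forkhead factor of gluconeogenesis, had 8.09 and 7.94 at 4 h, against 8.62 and 8.68 at 2 h, and fell by 0.64, and the cyclin-like Ccng2, a FOXO target, fell by 1.02, while the repressor Bcl6 rose by 0.74. Igfbp1, an insulin-suppressed binding protein of insulin-like growth factors, differed by -0.38 (adjusted p = 0.33).

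Of 11 genes of the insulin-like growth factor and growth hormone axis, 2 rose and 2 fell. The growth hormone receptor Ghr fell by 0.52 and the cytokine signalling inhibitor Socs3 by 0.28, a call that was lost in 19 of 26 alternative settings, and the related Cish rose by 0.36, against -2.64 in GFP cells. Igf1r was below background at 2 h. Of 16 Notch and TGF-beta genes, 6 rose and 3 fell. The TGF-beta receptors Tgfbr1 (1.30) and Tgfbr2 (1.002) rose, while the ligand Tgfb2 fell by 0.95.

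Of 21 genes of the unfolded protein and amino acid responses, 4 rose and 4 fell, close to the shares of 21.1% and 20.6% over all genes. The falls numbered 1 with median scaling and 2 without array B of the 2 h group, array A of the 4 h group or array B of the 4 h group. Xbp1, the spliced factor of the unfolded protein response, had 14.49 and 14.57 at 4 h, against 13.06 and 12.98 at 2 h, and rose 2.85-fold, and Creld2 (0.64) and Herpud1 (0.61), both of the endoplasmic reticulum, also rose. Of 15 heat shock and oxidative stress genes, 7 rose and 3 fell, with 4 rises without array B of the 2 h group or array A of the 4 h group. The NRF2 targets Srxn1 (1.03) and Nqo1 (0.91) rose, also under DMSO (0.80 and 0.998), and the small heat shock protein Hspb1 fell by 0.96. Of 10 hypoxia-linked genes, 6 rose and none fell (0 at an unadjusted p under 0.05, median 0.48). Egln3, a prolyl hydroxylase that marks hypoxia-inducible factor for decay, had 12.49 and 12.49 at 4 h, against 10.69 and 10.47 at 2 h, and rose by 1.91, and the angiogenic factor Vegfa rose by 0.56.

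**Figure D5:**
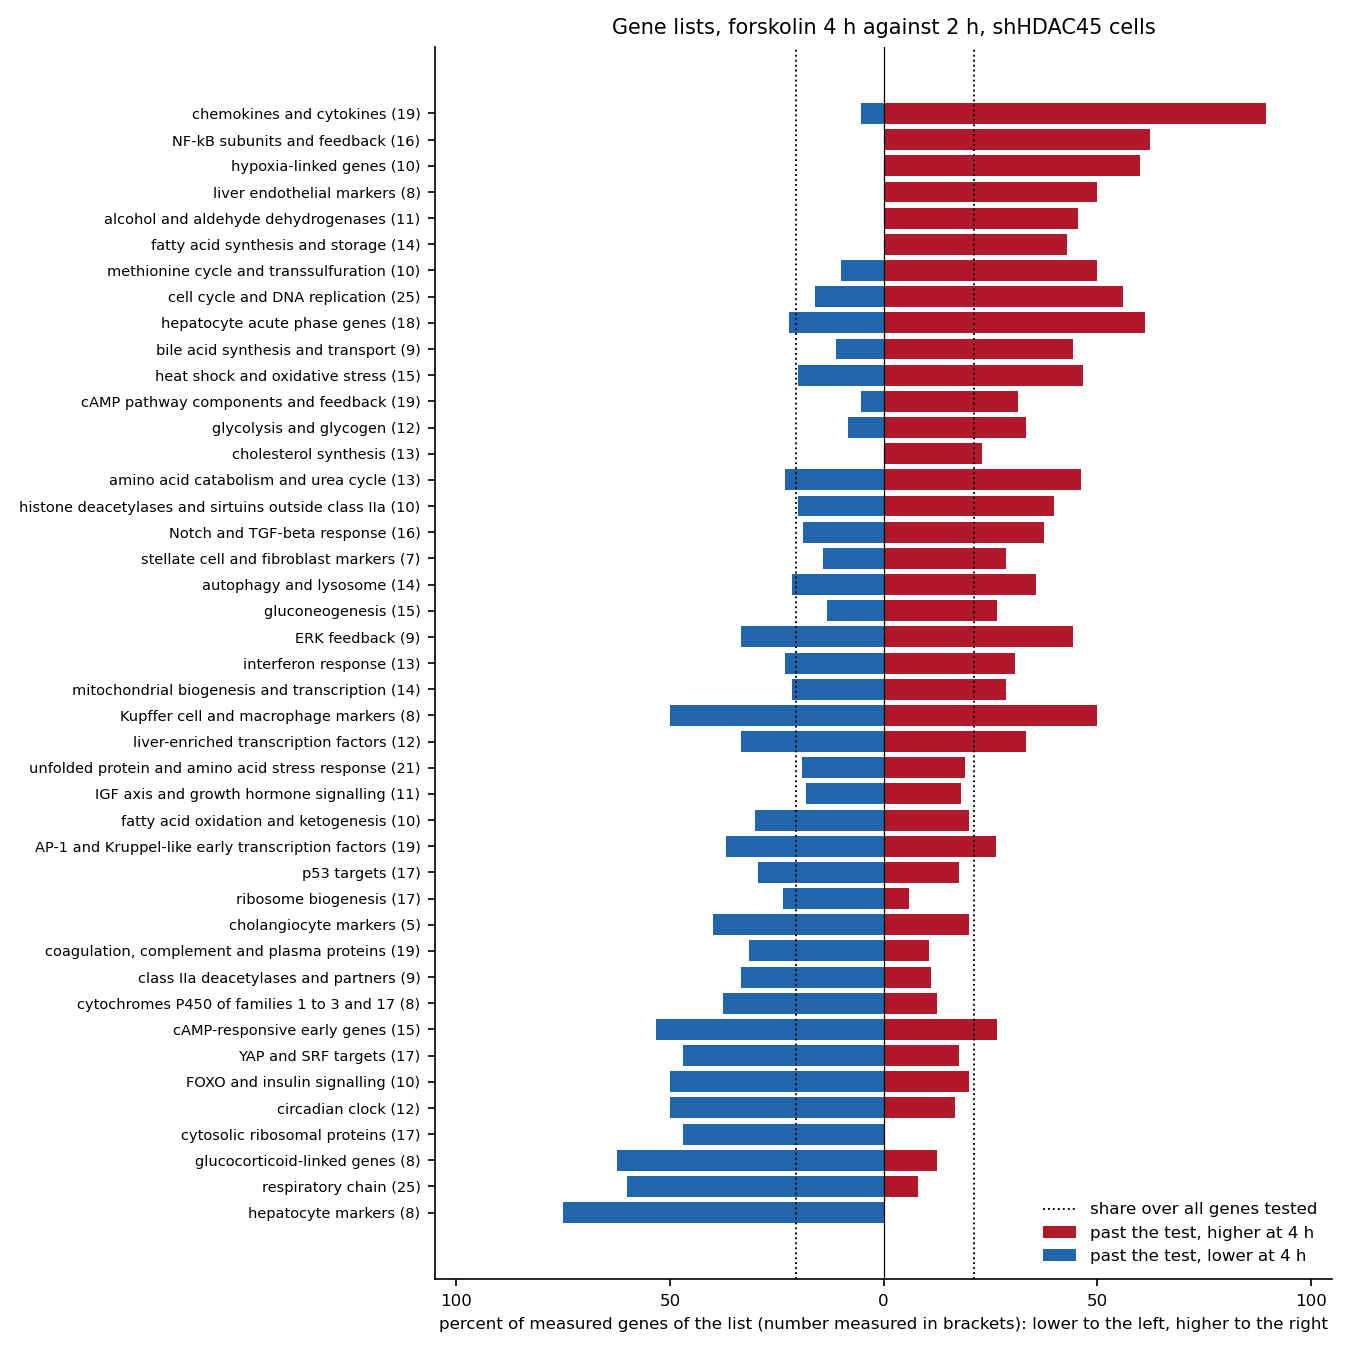
Percent of the measured genes of each list with at least 5 measured members that were higher (red, to the right) or lower (blue, to the left) at 4 h than at 2 h of forskolin in shHDAC45 cells, with dotted lines at the shares over all genes, 21.1% higher and 20.6% lower. Chemokines and cytokines reach furthest to the right with 17 of 19 members, and hepatocyte markers furthest to the left with 6 of 8.

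Among the 12 largest rises, 3 genes belonged to no list above. Cyp1b1, a cytochrome P450 that oxidizes oestrogens and aromatic pollutants, had 10.81 and 10.69 at 4 h, against 7.32 and 7.30 at 2 h, and rose 10.9-fold (3.45 ± 0.11 (SE), adjusted p = 7.6e-10), or 6.56-fold with no background correction, and by 3.15 under DMSO. In GFP cells it was below background at 2 h and at least 1.71-fold higher at 4 h. Rgs16, which speeds the turn-off of G proteins, had 10.13 and 10.26 at 4 h, against 6.93 and 7.19 at 2 h, and rose 8.79-fold, or 5.04-fold with no background correction, with 2.85 under DMSO, and it was below background in GFP cells at both times. Vnn3, of the vanin family, had 10.88 and 10.84 at 4 h, against 7.63 and 7.86 at 2 h, and rose 8.67-fold. The arrays of the 2 times did not overlap for any of these genes.

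Among the largest falls, C2cd4a had 5.35 and 5.26 at 4 h, against 8.40 and 8.59 at 2 h and was at least 5.22-fold lower at 4 h, where it was below background (adjusted p = 8.7e-10). In GFP cells it was likewise below background at 4 h and at least 4.29-fold lower, and under DMSO it was below background at both times. P2ry14, a receptor for UDP-glucose, had 7.64 and 7.83 at 4 h, against 10.29 and 10.25 at 2 h, and fell 5.79-fold, and Fam25c fell 6.88-fold (9.73 and 9.53 at 4 h, against 12.40 and 12.42 at 2 h). Apoc4, an apolipoprotein, had 7.61 and 7.56 at 4 h, against 9.77 and 9.91 at 2 h and Cldn4, a tight junction protein, 10.78 and 10.65 at 4 h, against 12.94 and 12.99 at 2 h. Their falls were 4.77-fold and 4.76-fold. Fhl2, a LIM-domain cofactor like Lmcd1, had 7.73 and 8.06 at 4 h, against 10.07 and 10.05 at 2 h, and fell 4.49-fold, and both genes fell in GFP cells as well, Lmcd1 by 2.23 and Fhl2 at least 4.85-fold to below background. Phlda2, a product of an imprinted gene, had 6.31 and 6.08 at 4 h, against 8.43 and 8.27 at 2 h, and fell 4.46-fold, or 2.29-fold with no background correction, with 1 of 2 arrays detecting it at 4 h. Phyhipl was at least 2.63-fold lower and Cox7a1, the muscle form of a cytochrome oxidase subunit, at least 2.86-fold lower, both below background at 4 h.

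The change from 2 h to 4 h of forskolin differed between knockdown and GFP cells for 1314 genes (17%), with 684 (8.83%) higher and 630 (8.13%) lower in knockdown cells. This difference shares the knockdown arrays with the comparison above. It was higher for 17 and lower for none (0 at an unadjusted p under 0.05) of the 19 chemokines and cytokines, and higher for 10 and lower for 1 of the 15 early cAMP genes. Its largest positive values were in inflammatory genes, among them Saa3 (4.94), Hamp (4.33), Ccl2 (3.85) and Cxcl1 (3.52). Beside G6pc and Pdk4, the largest negative values were in genes below background in knockdown cells. Dclk3, a kinase gene, Acot3, a peroxisomal thioesterase, and Tuba8, a tubulin, were below background in knockdown cells at both times, and Cyp1a2, which oxidizes caffeine, at 2 h. In GFP cells all 4 rose. Acot3 was at least 2.58-fold higher at 4 h there, from below background at 2 h, and Cyp1a2 had 10.35 and 10.40 at 4 h, against 7.80 and 7.84 at 2 h.

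Against DMSO, the change with time in knockdown cells differed for 1536 genes (19.8%), with 717 (9.26%) higher and 819 (10.6%) lower under forskolin. For the respiratory chain it was lower for 11 and higher for none (2 at an unadjusted p under 0.05) of the 25 genes, and for chemokines and cytokines higher for 7 and lower for 3 of 19. Beside Cxcl1, Cxcl5 and Il33, the largest positive values were in Rorb, a retinoid-related orphan receptor with 9.66 and 9.53 at 4 h, against 6.81 and 6.67 at 2 h under forskolin, in Cables1, which links cyclin kinases to Abl (8.68 and 8.67 at 4 h, against 6.52 and 6.54 at 2 h), and in Plet1, at least 4.18-fold higher at 4 h of forskolin. The largest negative values beside Csf2 and C2cd4a included F3, tissue factor, which starts coagulation. It had 7.02 and 7.25 at 4 h, against 8.39 and 8.19 at 2 h under forskolin and 10.33 and 10.25 at 4 h, against 8.93 and 8.79 at 2 h under DMSO, a fall with forskolin (-1.15) and a rise without it (1.43). Rpl38, a ribosomal protein gene, fell by 1.80 under forskolin, and Lce1g, of the cornified envelope family, was at least 2.06-fold lower.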

How the data were processed

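Biotin-labelled total RNA from 16 samples, 2 in each of 8 groups, was read on Illumina bead arrays with 24613 probes. GenomeStudio is named in the submitters' processing notes, with its version not given in the sources used here. The authors deposited non-normalized bead intensities with a detection p-value for each probe and array. They also deposited a processed table of normalized intensities, whose normalization is not given in the sources used here. These values served as an alternative, after an offset of 16 was added and the log2 was taken. Background was corrected from the deposited intensity and detection p-value columns with neqc in limma 3.58.1 (R 4.3.3), with an offset of 16, quantile normalization and log2 transformation. Column letters A and B are not tied to replicate numbers in the labels, so a letter only names an array.

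Probes with a detection p-value under 0.01 on at least 2 arrays that named 1 gene were kept (10439 probes passed detection), and the brightest probe stood for a gene. Of all probes, 20984 named 1 gene, 1 several and 3628 none. A model of 8 group means over all 16 arrays gave 5 contrasts with 8 residual and 4.6 prior degrees of freedom. Tests were two-sided, with Benjamini-Hochberg adjustment over 7746 genes and a threshold of 0.05. Genes not above background on either array of a group carry a bound, the brighter group's mean against the higher of the dim probe's signal and the lowest signal of a probe above background on each array. The method was tested on simulated data.

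Named genes were the 12 largest rises and 12 largest falls past the test without overlap of arrays, the 6 largest differences in each direction between viruses and between forskolin and DMSO, a fixed set of glucose and cAMP genes, and up to 4 members of each list with the smallest p. Other list members named were chosen after their values were seen. The comparison, the genes and the lists were chosen with earlier results of these data known. Tat, Nr4a1, Nr4a3 and Foxo3 did not pass the filter. Alternatives covered background correction, scaling, filter, probe choice, fit and each left-out array. The labels used here give no slide or scan date.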

Additional observations from a re-analysis of the deposited data

Results flagged for a closer look

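The change from 2 h to 4 h of forskolin differed between shHDAC45 and GFP cells by the test of the difference itself for the following genes, which are the 6 largest in each direction. The difference of log2 changes, shHDAC45 minus GFP, was 4.94 for Saa3, 4.83 for Cxcl5, 4.77 for Cxcl2, 4.33 for Hamp, 3.85 for Ccl2 and 3.52 for Cxcl1. Each of these 6 genes rose in shHDAC45 cells, Cxcl1 also rose in GFP cells, and Cxcl5 and Cxcl2 were below background in GFP cells. The values of Cxcl5 and Cxcl2 are therefore differences of fitted values and not of measured levels, and their place in the order has no meaning. The difference was -3.51 for G6pc and -2.62 for Pdk4, which fell in shHDAC45 cells. It was -2.94 for Dclk3, -2.82 for Acot3, -2.36 for Cyp1a2 and -2.33 for Tuba8, and because these 4 genes were below background in shHDAC45 cells at 1 or both times, these values are differences of fitted values and not of measured levels.

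Within shHDAC45 cells, the change from 2 h to 4 h differed between forskolin and DMSO, by the same kind of test, for the 6 largest genes in each direction. The difference, forskolin minus DMSO, was 3.25 for Cxcl1, 2.63 for Cxcl5, 2.61 for Rorb, 2.50 for Plet1, 2.29 for Cables1 and 2.19 for Il33. Rorb and Plet1 were below background under DMSO at both times. It was -3.10 for Csf2, -2.97 for C2cd4a, -2.92 for Lce1g, -2.58 for F3, -2.34 for Phyhipl and -2.28 for Rpl38. For Csf2, C2cd4a, Lce1g and Phyhipl, as for Rorb and Plet1, which were below background in at least 1 of the groups compared, these are differences of fitted values and not of measured levels, and their order has no meaning. Csf2 was below background on the forskolin arrays and rose under DMSO, and F3 fell under forskolin and rose under DMSO. All groups had 2 arrays, too few to look for an outlying array within a group.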

How the results depend on the processing

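No named gene's called difference turned its sign under any of the 26 alternatives. Median scaling turned the median log2 difference of fatty acid oxidation genes to 0.05, against -0.12, and that of deacetylases outside class IIa to 0.02, against -0.07. The count of genes changed between 4 h and 2 h of forskolin in shHDAC45 cells, 3234, ranged from 2458 to 3252 without single arrays. In GFP cells 2954 became 2268 to 2939, and under DMSO 669 became 371 to 677, with 355 when only the arrays compared were fitted. Without an array of the shHDAC45 DMSO groups it was 371 (4 h, A), 385 (4 h, B), 380 (2 h, A) and 417 (2 h, B), where fewer arrays of the contrast remain. The difference between viruses, 1314 genes, became 898 to 1275 without single arrays and 792 with median scaling, and that between forskolin and DMSO, 1536 genes, became 1127 to 1520 without single arrays. Median scaling put 63.8% of the called genes higher in GFP cells, against 50%, and 59.5% higher, against 46.7%, for the difference between forskolin and DMSO. The cause of the moves with scaling was not tested.

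With the array letter as a replicate block the counts were 3626 (shHDAC45), 3328 (GFP), 841 (DMSO), 1628 (viruses) and 1888 (treatments), and with the replicate number as a block on the authors' values 3787, 3514, 980, 1805 and 2136. Deviations from the group means of same-lettered arrays correlated at 0.0491 to 0.307 over 28 pairs of groups, above 0 in all of them, over 0.1 in 25 of them, and at 0.0716 for the groups compared. Since not every pair was over 0.1 and the labels tie the letters to nothing, the letters were not taken as pairs, but an effect they share is not excluded. No named gene lost its call with a block. Hdac4, Sik1, Pck1 and Col3a1 gained it for the time difference with at least 1 of the blocks, and Ppargc1a, Igfbp1 and Crem for the difference between viruses.

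Of 4982 values for 192 named genes, 4864 kept their call, 93 lost it and 25 gained it, and 158 genes kept it throughout. Socs3 lost its call in 19 settings, Hdac7 and Ldha with median scaling, while Sik1 passed in 9 (adjusted p from 0.0027 to 0.32) and Hdac4 in 8 (0.014 to 0.24). Median scaling also removed the calls of Camk2d, Cish, Col1a1, Cry2, Csf2, Cyp27a1, Cyp2d22, Cyp3a13 and Fbl. The same held for Gabarapl1, Hdac3, Rpl22, S100a8, Sirt5, Sirt7 and Socs3. Fold sizes depended on the background correction. Of 180 named genes past the test, 25 moved by over 1.5-fold with no background correction and 20 on the authors' values, and none did when a single array was left out. Among lists, rising autophagy genes went to 2 where 5 had passed, rising deacetylases outside class IIa to 1 of 4 and falling unfolded protein genes to 1 of 4 at the lowest. With 2 arrays a group, small differences near background are the least certain.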

Other observations

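Further gene groups were measured in the comparison of 4 h with 2 h of forskolin in shHDAC45 cells. Of 17 p53 targets, 3 rose and 5 fell (median -0.01). Zmat3, an RNA-binding protein, rose by 0.71 and fell by 0.33 in GFP cells. The growth arrest genes Gadd45b (-1.01) and Gadd45a (-0.49) and the kinase Plk3 (-0.62) fell. Of 14 autophagy and lysosome genes, 5 rose and 3 fell, with 2 rises without array B of the 2 h group and 3 without any 1 of the other arrays compared. The cargo receptor Sqstm1 (0.53) and the mitophagy receptor Bnip3l (0.49) rose, while Map1lc3a (-0.55) and Gabarapl1 (-0.42), which coat autophagosomes, fell.

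Of 10 histone deacetylases and sirtuins outside class IIa, 4 rose and 2 fell (median -0.07, and 0.02 with median scaling). The rises numbered 1 without array A of the 2 h group or array B of the 4 h group, and 2 without array A of the 4 h group, with median scaling or with the arrays compared fitted alone. Hdac1 had 9.36 and 9.52 at 4 h, against 8.82 and 9.15 at 2 h and rose by 0.45. Hdac3, the enzyme that class IIa deacetylases recruit, had 11.40 and 11.61 at 4 h, against 11.11 and 11.18 at 2 h and rose by 0.36, a call lost in 4 alternatives. The mitochondrial desuccinylase Sirt5 fell by 0.59 and the nucleolar Sirt7 rose by 0.34.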
